A study of Rattus norvegicus with 65 samples.

Results

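The nuclear genes of the subunits of respiratory complex I were followed in hypothalami of 65 male Wistar rats. The 38 genes were chosen by name alone from 38513 gene rows, as protein-coding genes whose symbol begins with Ndufa, Ndufb, Ndufc, Ndufs or Ndufv, without the assembly factors called Ndufaf. Complex I, or NADH dehydrogenase, is the entry point of electrons into the mitochondrial respiratory chain. Its peripheral arm takes electrons from NADH and passes them along iron-sulfur clusters to ubiquinone, and its membrane arm pumps protons. The core of the peripheral arm is encoded in the nucleus, the core of the membrane arm in mitochondrial DNA, and the many accessory subunits in the nucleus, and in brain the complex supports the high energy use of neurons.

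The methods describe the groups below other than the lean one. By them, the rats were adult and were made obese on a high-fat diet before the intervention. The tissue was taken some weeks after it from fasted animals. RYGB-treated animals (n = 14) underwent Roux-en-Y gastric bypass, in which food is led from a small gastric pouch into the small intestine, and sham animals (n = 11) a sham operation. Body-weight-matched (BWM) animals (n = 7), described by the study as sham-operated too, were food-restricted so that their weight followed that of RYGB-treated animals. The gut hormone groups received PYY3-36, a peptide of the lower gut that reduces food intake, through an osmotic minipump (n = 4), the GLP-1 receptor agonist liraglutide by injection (n = 5) or both, named PYY3-36 + liraglutide (n = 10), and saline animals (n = 8) received saline by both routes. After the intervention, high-fat and low-fat diet were offered side by side and without limit to all of these groups other than BWM. A further group is labelled lean (n = 6), and its labels give neither a treatment nor a diet. The paper's results name a low-fat-diet-only group but do not equate it with the lean label. The experiments were run in 2 periods, labelled batch A (37 animals) and batch B (28 animals). Batch A held every BWM and every lean animal, and batch B every animal given PYY3-36 alone or liraglutide alone. RYGB-treated animals were split 11 to 3 between batch A and batch B, sham animals 5 to 6, saline animals 3 to 5 and PYY3-36 + liraglutide-treated animals 5 to 5.

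Each animal gave 1 library, with 20041010 to 36539941 counts on genes (median 27379945), of which the 38 genes took between 0.336% and 0.632%. Levels are given as CPM, counts relative to the library size after TMM scaling. Differences are log2 fold changes from edgeR's quasi-likelihood test, with an SE derived from its F statistic, over all 21871 genes that passed a low-count filter. Group CPM pool both batches unless a batch is named, and were not adjusted for batch. Log2 fold changes over all animals were adjusted for batch unless stated otherwise. Where groups are spread unevenly over the batches, their CPM also hold the difference between batches. A gene was called at a Benjamini-Hochberg adjusted p under 0.05. All 38 genes passed the filter, and none was at 0 in any library. The libraries that stood apart numbered 3 by whole-library composition. Pituitary marker genes were highest in BWM replicates 5 and 7. Of the counts on protein-coding genes, the share on those with more than 5000 exon bases was lowest, at 20.2%, in RYGB replicate 11. Neuronal markers were present in every library, with summed levels between 2748 and 9138 CPM in RYGB-treated and between 4474 and 7808 CPM in sham animals. In whole tissue, fewer cells of a type and less RNA per cell cannot be told apart.

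The names needed checks. The row named Ndufs6 is listed as the pseudogene Ndufs6-ps1 in the newer RefSeq annotation (GRCr8), where the functional Ndufs6 is the row LOC679739, outside the naming rule. Ndufa4 is now counted as a subunit of complex IV, cytochrome c oxidase, and Ndufa4l2 is its hypoxia-inducible paralog. Ndufa10l1 is named for its likeness to Ndufa10, spans 1434 bases that are all exon, and was put in no structural group. Reads that matched several places in the genome or several overlapping genes were shared out as fractions, which the table does not tell apart. The values of Ndufb4 were not whole in 100% of libraries, of Ndufs5 in 95.4%, of Ndufa1 in 87.7%, of Ndufb3 in 80.0% and of Ndufa3 and Ndufc1 in 73.8%, so their levels include shared reads. Only Ndufa6, Ndufb11, Ndufb5 and Ndufs1 had whole values in every library, and the other genes had smaller shares of values that were not whole.

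The genes lay on 15 chromosomes and were mostly short. Their exon length ran from 351 to 4968 bases, with a median of 700 against 2412.5 for all protein-coding genes, and 26 of 38 were shorter than 1000 bases, as were 17.6% of protein-coding genes. In Rnor_6.0, the genome of the deposited table, Ndufb7 lies at chr19:24701067-24705405 on the plus strand, Ndufb4 at chr11:65960277-65966899 on the plus strand, Ndufs5 at chr5:141390577-141405507 on the minus strand, Ndufa10 at chr9:99617051-99651827 on the minus strand and Ndufs1 at chr9:69919863-69953182 on the minus strand.

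Promoter sequences from RefSeq (GRCr8), from 250 bases before to 50 bases after each gene's start, were found for 33 of the 38 genes. Ndufa10l1, Ndufa8, Ndufb9 and Ndufs6 were among those without an entry. The windows below run from 150 bases before the start to 30 after it. They belong to the genes with the smallest p (Ndufb7, Ndufb4) and the largest p (Ndufa10, Ndufs1) of these 33 in RYGB-treated vs. sham animals, and are shown so that promoters of genes at both ends of that comparison can be read side by side. Capitals mark matches to letters bound by regulators of respiratory genes, namely NRF1 (CGCANGCGC), the ETS family to which GABP belongs (CCGGAAG), YY1 (ATGGCGG) and the estrogen-related receptors (AAGGTCA), searched on both strands.
Ndufb7 (chr19:41477262-41477441, minus strand): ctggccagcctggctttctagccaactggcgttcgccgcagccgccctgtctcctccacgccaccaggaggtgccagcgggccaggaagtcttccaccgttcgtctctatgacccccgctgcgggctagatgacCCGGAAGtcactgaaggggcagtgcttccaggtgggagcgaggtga
Ndufb4 (chr11:76569028-76569207, plus strand): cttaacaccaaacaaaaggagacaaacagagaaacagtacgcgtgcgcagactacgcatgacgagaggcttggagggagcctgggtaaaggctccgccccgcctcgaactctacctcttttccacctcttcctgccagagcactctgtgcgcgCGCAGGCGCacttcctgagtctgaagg
Ndufa10 (chr9:100489235-100489414, minus strand): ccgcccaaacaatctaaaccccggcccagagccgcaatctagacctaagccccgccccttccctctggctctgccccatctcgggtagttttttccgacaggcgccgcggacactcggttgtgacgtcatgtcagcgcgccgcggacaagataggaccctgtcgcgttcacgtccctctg
Ndufs1 (chr9:72073576-72073755, minus strand): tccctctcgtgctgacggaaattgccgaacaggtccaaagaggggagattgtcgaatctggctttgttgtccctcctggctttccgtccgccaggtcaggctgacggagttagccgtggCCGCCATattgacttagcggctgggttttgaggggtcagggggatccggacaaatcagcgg

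Ndufb7 held an ETS match upstream of its start, Ndufb4 an NRF1 match just after it, Ndufs1 a YY1 match on the other strand upstream of it, and the Ndufa10 window held none of these 4 motifs. Over the full 300 bases, YY1 letters were in 9 of 33 promoters of the complex I genes (27.3%, against 4.80% of all 33469 promoters), NRF1 letters in 7 (21.2% against 5.75%), ETS letters in 6 (18.2% against 8.75%) and estrogen-related receptor letters in 3 (9.09% against 4.61%). Of the 32 promoters found for nuclear genes of complexes II to V, 15.6% held YY1, 37.5% NRF1, 40.6% ETS and 21.9% estrogen-related receptor letters. The GC box (GGGCGG) was in 15 (45.5% against 33.1%), the CCAAT box in 10 (30.3% against 37.5%) and the TATA box (TATAAA) in 2 (6.06% against 14.2%). The GC content had a median of 57.0% over the 33 promoters and of 51.7% over all promoters. These are matches of letters, chosen after other forms of the NRF1 letters had been looked at, and draw on no binding data.

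Per kilobase of exon, the order of the genes by their median over the 65 animals ran from Ndufb8 at 392 CPM per kilobase through Ndufa4 at 367, Ndufb9 at 258, Ndufa8 at 258 and Ndufv2 at 233 down to Ndufv3 at 35.2, Ndufa10 at 28.1, Ndufa10l1 at 26.9 and Ndufa4l2 at 5.09. The ranges over animals overlapped for 36 of 37 neighbouring pairs in this order. Subunits of the distal membrane arm were the most abundant group, with a median of 170 CPM per kilobase over 10 genes, against 147 for the proximal membrane arm (8 genes), 124 for the Q module, which hands electrons to ubiquinone (6 genes), and 113 for the N module, which oxidizes NADH (10 genes). Levels of genes with fractional counts are less exact in this order.

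The genes varied together across animals. Over the 703 pairs of genes the median Pearson r of log2(CPM + 1) over 65 libraries, after the group and batch means had been removed, was 0.83, from -0.29 to 0.97, and 32 of 38 genes had an r over 0.8 with the mean of the others. Ndufs1 (-0.03), Ndufa4l2 (0.08), Ndufa10 (0.41), Ndufa10l1 (0.50), Ndufv1 (0.73) and Ndufv3 (0.73) were the exceptions. All values of a library share its scaling and depth, so these correlations are a description and carry no p.

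**Figure D1:**
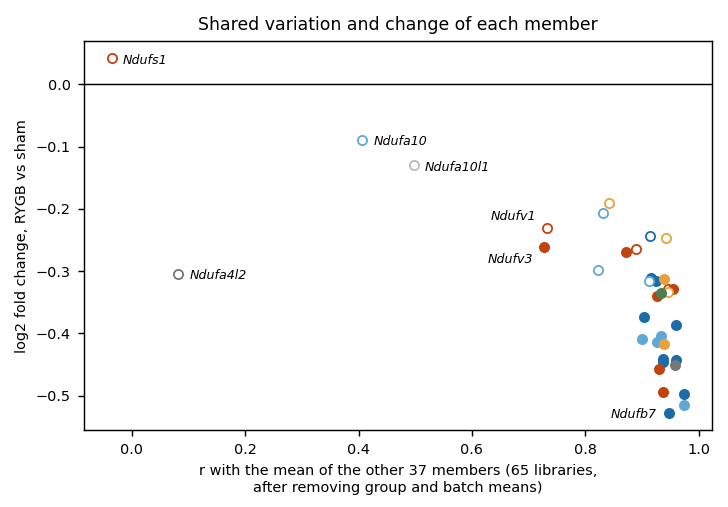
Pearson r of log2(CPM + 1) of 37 of the 38 complex I genes, each with the mean of the other 37 genes over 65 libraries, after removal of group and batch means (x axis), against the log2 fold change in RYGB-treated vs. sham animals (y axis), 1 point per gene. Most genes lie right of 0.8, and Ndufs1, Ndufa4l2, Ndufa10 and Ndufa10l1 lie farthest left, Ndufs1 and Ndufa10 near 0 on the y axis.

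RYGB-treated animals had lower levels of most complex I genes than sham animals. Of the 38 genes, 23 were called lower and 0 higher (60.5%, against 6.53% of all genes tested that were called lower), 37 of 38 differences were below 0, and the median was -0.33 on the log2 scale, a fall of 20.3%, against -0.02 over all genes. The differences ran from -0.53 for Ndufb7 to 0.04 for Ndufs1. At an unadjusted p under 0.05 stood 33 genes (30.0% of all genes did so in either direction), DESeq2 called 24 lower (7.10% of all genes), and 0 genes passed the study's further limit of an absolute log2 fold change above 1 (2.37% of all genes). The smallest changes called were those of Ndufv3 (-0.26 ± 0.08, adjusted p = 0.0218, edgeR) and Ndufs4 (-0.27 ± 0.09, adjusted p = 0.0309, edgeR), and the nearest misses were Ndufa8 (-0.32 ± 0.11, adjusted p = 0.0515, edgeR) and Ndufa5 (-0.33 ± 0.13, adjusted p = 0.0635, edgeR).

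**Figure D2:**
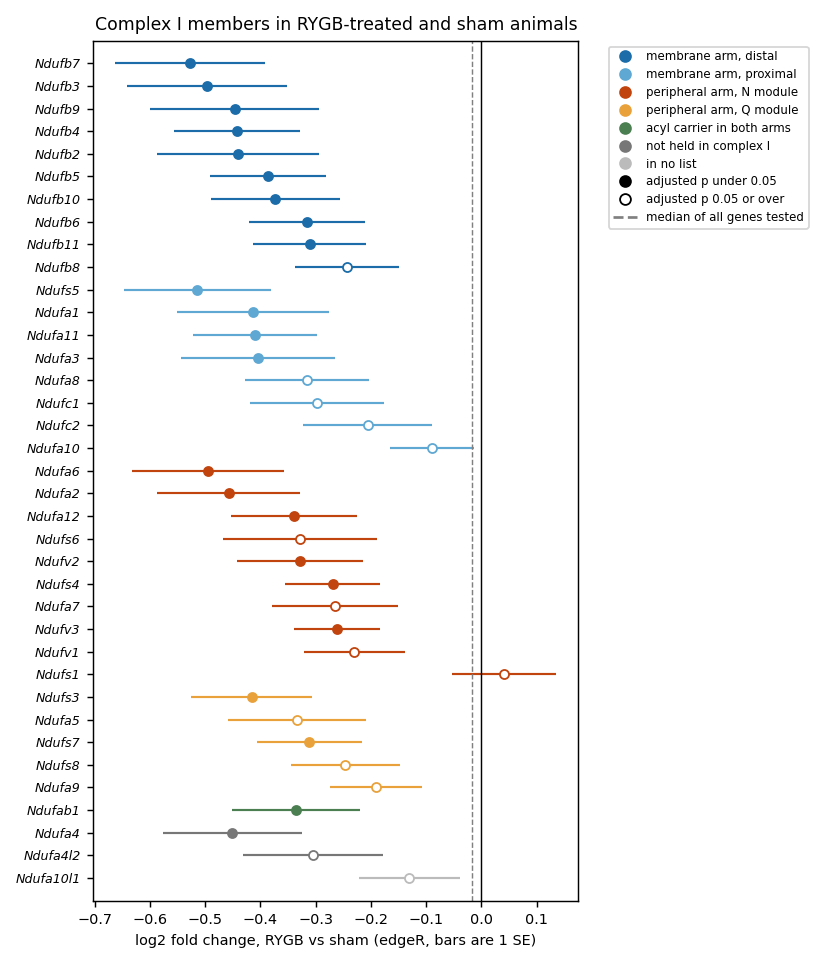
Log2 fold change with SE of 37 of the 38 genes in RYGB-treated (n = 14) vs. sham animals (n = 11), from edgeR with group and batch terms, grouped by structural module. Filled points mark adjusted p under 0.05, and the dashed line the median of all genes. All shown but Ndufs1 lie left of 0, and the largest falls are those of Ndufb7, Ndufs5, Ndufb3 and Ndufa6.

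Among accessory subunits of the membrane arm, 9 of 10 distal genes were called lower, with a median of -0.41, and Ndufb8 was the exception (-0.24 ± 0.09, adjusted p = 0.0730, edgeR). Ndufb7, which faces the intermembrane space and is held by disulfide bonds, was at 58.8, 81.7 and 173 CPM (lowest, median, highest) in RYGB-treated and 93.2, 134 and 152 in sham animals, a difference of -0.53 ± 0.14 (adjusted p = 0.00868, edgeR). Ndufb4, one of the subunits close to the tip of the arm, was at 56.7, 71.3 and 146 CPM in RYGB-treated and 75.6, 108 and 125 in sham animals (-0.44 ± 0.11, adjusted p = 0.00884, edgeR). For both, 13 of the 14 RYGB values were under the median of sham animals, and 11 (Ndufb7) and 10 (Ndufb4) were under the lowest sham value. The ranges overlapped, and RYGB replicate 11 lay above every sham animal. Ndufb5, a single-pass membrane protein, was at 83.4, 106 and 180 CPM against 107, 159 and 174 (-0.39 ± 0.11, adjusted p = 0.0131, edgeR). Ndufb3, another small membrane subunit, was at 46.3, 61.4 and 143 CPM against 65.7, 105 and 117 (-0.50 ± 0.15, adjusted p = 0.0192, edgeR). The ranges of these genes overlapped in the same way. Of the proximal membrane arm, 4 of 8 genes were called lower, with a median of -0.36. Ndufs5, an accessory subunit on the side of the intermembrane space despite its letter, was at 51.0, 66.1 and 139 CPM in RYGB-treated and 76.4, 115 and 137 in sham animals (-0.51 ± 0.13, adjusted p = 0.00906, edgeR). Ndufa11, a membrane subunit that takes part in the contact with complex III in supercomplexes, was at 69.1, 85.6 and 163 CPM against 77.5, 125 and 154 (-0.41 ± 0.11, adjusted p = 0.0132, edgeR). In both genes most RYGB-treated animals were low, with RYGB replicate 11 above all sham animals. Ndufa10, which resembles a nucleoside kinase, stood apart from its module with 104, 127 and 163 CPM against 128, 139 and 180 (-0.09 ± 0.08, adjusted p = 0.451, edgeR).

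In the peripheral arm, 6 of 10 N-module genes were called lower (median -0.30) and 2 of 6 Q-module genes (median -0.28). Ndufa6, which docks the acyl carrier protein onto the arm, was at 73.4, 102 and 224 CPM in RYGB-treated and 104, 172 and 237 in sham animals (-0.49 ± 0.14, adjusted p = 0.0144, edgeR). Ndufa2, an N-module subunit with a thioredoxin-like fold, was at 51.4, 60.4 and 134 CPM against 69.2, 100.2 and 109.9 (-0.46 ± 0.13, adjusted p = 0.0163, edgeR). The low end of both ranges was held by RYGB-treated animals and the ranges overlapped. Ndufab1, the acyl carrier protein itself, which sits in both arms, was at 89.7, 111 and 204 CPM against 106, 168 and 178 (-0.34 ± 0.12, adjusted p = 0.0452, edgeR).

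Of the 7 core subunits, which carry the electron path, 3 were called lower and the median was -0.25. Ndufs3, a core subunit without an iron-sulfur cluster, was at 85.7, 108 and 189.3 CPM in RYGB-treated and 127, 175 and 189.5 in sham animals (-0.42 ± 0.11, adjusted p = 0.0103, edgeR). Of the 14 RYGB values, 11 were under the lowest sham value and the others lay within the sham range. Ndufs7, which holds the last cluster before ubiquinone, was at 86.6, 111 and 188 CPM against 119, 150 and 180 (-0.31 ± 0.10, adjusted p = 0.0245, edgeR). Ndufv2, an iron-sulfur subunit at the NADH end, was at 132, 162 and 310 CPM against 165, 247 and 274 (-0.33 ± 0.11, adjusted p = 0.0464, edgeR). Both ranges overlapped, with the medians of RYGB-treated animals below the lowest sham animal. Not called were Ndufv1, which binds NADH, at 152, 185 and 308 CPM against 219, 247 and 302 (-0.23 ± 0.09, adjusted p = 0.0801, edgeR), and Ndufs8, an iron-sulfur subunit, at 59.8, 76.4 and 142 CPM against 69.4, 109 and 121 (-0.25 ± 0.10, adjusted p = 0.0822, edgeR). Ndufs1, the largest core subunit, was at 132, 166 and 239 CPM against 153, 184 and 212 (0.04 ± 0.09, adjusted p = 0.799, edgeR), the only one of the 38 differences above 0.

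Of the genes not held in complex I, 1 of 2 was called. Ndufa4 was at 190.5, 235 and 461 CPM in RYGB-treated and 250, 390 and 544 in sham animals (-0.45 ± 0.13, adjusted p = 0.0144, edgeR). Ndufa4l2, the least abundant of the 38 per kilobase, was at 2.63, 4.55 and 6.51 CPM against 2.81, 5.46 and 9.60 (-0.30 ± 0.13, adjusted p = 0.0932, edgeR). Rows outside the naming rule were examined too. LOC679739, the functional Ndufs6, differed by -0.31 ± 0.12 (adjusted p = 0.0787, edgeR), LOC100911483, the functional Ndufa13, by -0.45 ± 0.12 (adjusted p = 0.00945, edgeR) and Ndufb1, listed as a long noncoding RNA, by -0.54 ± 0.15 (adjusted p = 0.0158, edgeR).

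The median difference was below 0 in both batches, with different precision. Within batch A (11 RYGB-treated, 5 sham) the median was -0.33 and 38 of 38 differences were below 0, but edgeR called 0 genes lower (1.01% of all genes), with a smallest adjusted p of 0.0941 for Ndufs3 and 21 genes at an unadjusted p under 0.05 (22.7% of all genes). Within batch B (3 RYGB-treated, 6 sham) the median was -0.40, 35 of 38 were below 0 and 25 were called lower (5.53% of all genes), with the smallest adjusted p of 0.0015 for Ndufa4 (-0.70 ± 0.12). In batch B, 31 of 38 genes had all 3 RYGB-treated animals below all 6 sham animals (8.25% of all genes did, and 15.8% did not overlap in either direction), while in batch A the ranges of all 38 overlapped. When the spread was estimated over all 65 animals and the batches were still compared apart, 9 genes were called lower in batch A (4.33% of all genes) and 2 in batch B (0.644% of all genes), with medians of -0.35 and -0.41. For Ndufs3 in batch B, RYGB-treated animals were at 122, 126 and 138 CPM and sham animals between 162 and 189.5 CPM. The difference between the batches was itself called for 0 genes (0% of all genes, edgeR), and 2 had an unadjusted p under 0.05 (10.4% of all genes): Ndufa10, higher by 0.38 in batch B (p = 0.0149), and Ndufs1, higher by 0.44 (p = 0.0261).

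The count of 23 depended on single animals. It was 14 without RYGB replicate 1, 2, 4 or 9, 13 without RYGB replicate 12, 12 without RYGB replicate 13, 11 without RYGB replicate 14, 13 without sham replicate 2, 11 without sham replicate 3, 4 or 5, 15 without sham replicate 9, and 34 without RYGB replicate 11, which was the highest RYGB-treated animal for 32 of the 38 genes. The share of all genes called lower in these fits is not given here, so the counts cannot be read as particular to the complex I genes. Over all 25 animals left out in turn, the median stayed between -0.42 and -0.29. Without the 3 libraries that stood apart, a choice made after seeing the data, 34 genes were called lower (13.3% of all genes) and the median was -0.42. Without the batch term 35 were called lower (13.7% of all genes).

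**Figure D3:**
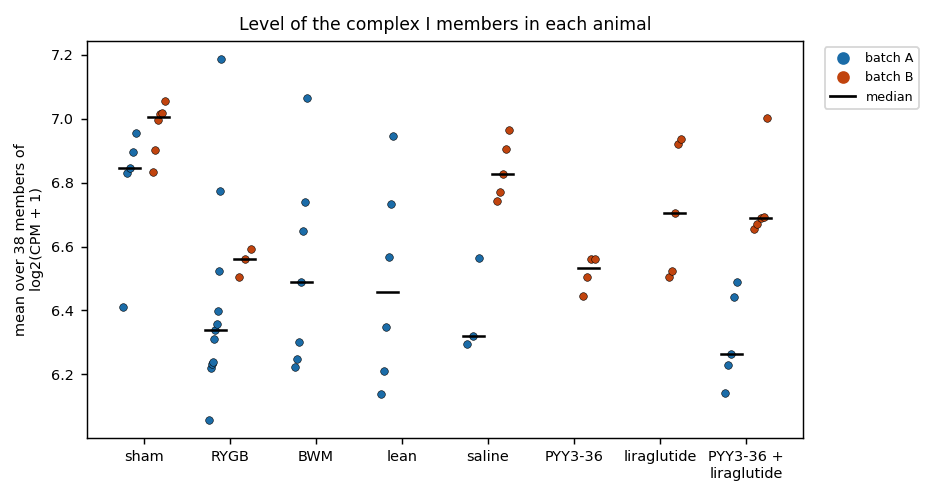
Mean log2(CPM + 1) over the 38 complex I genes in each of the 65 animals, by group, in blue for batch A and orange for batch B, with a line at the median of each batch. RYGB-treated animals have a median of 6.38 and sham animals of 6.90, and RYGB replicate 11 lies at 7.19, above all sham animals.

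As a mean of log2(CPM + 1) over the 38 genes, 13 of the 14 RYGB values were under the median of sham animals and 8 under the lowest sham value. The medians were 6.34 in batch A and 6.56 in batch B for RYGB-treated animals and 6.85 and 7.0 for sham animals, with a residual SD of 0.23 over all animals after group and batch.

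Exon length moved with the fall. Genes of the set shorter than 1000 bases had a median of -0.36 and 18 of 26 were called lower (69.2%). From 1000 to 2000 bases the median was -0.25 and 4 of 9 were called, and from 2000 to 5000 bases it was -0.09 and 1 of 3, Ndufab1, was called. The other protein-coding genes had medians of -0.23 under 1000 bases (20.4% of them called lower), -0.09 from 1000 to 2000 bases (11.9%), 0.01 from 2000 to 5000 bases (4.52%) and 0.08 above 5000 bases. Of the counts on protein-coding genes, the share on those under 1000 bases outside the set was also taken. In RYGB-treated animals this share was between 5.27% and 11.2% (median 6.26%), and in sham animals between 5.47% and 9.29% (median 8.0%). The part of gene length in the result was not tested.

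**Figure D4:**
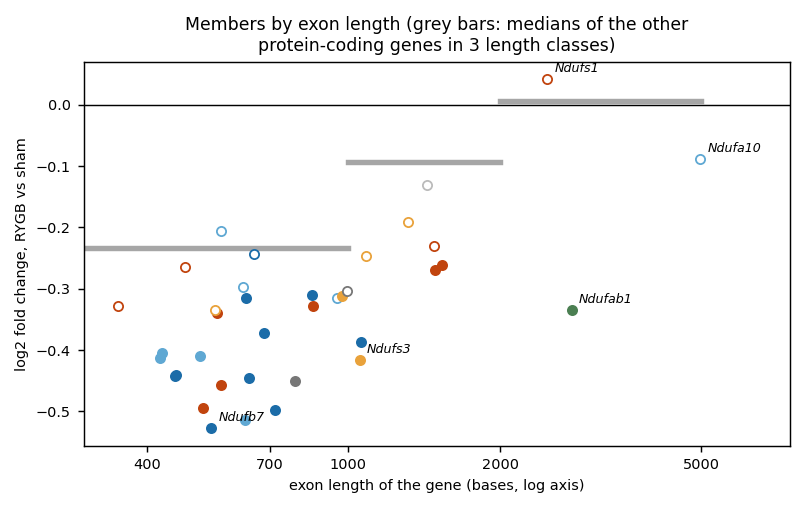
Log2 fold change in RYGB-treated vs. sham animals against exon length (log axis, bases) for 37 of the 38 complex I genes, with grey bars at the median of other protein-coding genes in each length class and filled points at adjusted p under 0.05. Most short genes of the set lie lower than the median of other genes of their length (-0.23), and Ndufs1 and Ndufa10 lie near 0.

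Calls were also counted for other genes of the respiratory chain, of mitochondria and of ribosomes, from lists written with earlier results of these data known. Of 38 nuclear genes of complexes II to V, 22 were called lower and 1 higher (Sdha, 0.21 ± 0.07, adjusted p = 0.0334, edgeR), with a median of -0.35. Of 16 complex I assembly factors, which help build the complex, 4 were called lower and the median was -0.16. These were Ndufaf3 (-0.31 ± 0.08, adjusted p = 0.00724, edgeR), Ecsit (-0.35 ± 0.10, adjusted p = 0.0135, edgeR), Ndufaf2 (-0.40 ± 0.12, adjusted p = 0.0266, edgeR) and Tmem261 (-0.27 ± 0.08, adjusted p = 0.0281, edgeR). Of 13 regulators of mitochondrial gene expression 0 were called by edgeR and 5 had an unadjusted p under 0.05, and the 3 with the smallest p were Tfb2m (-0.27, adjusted p = 0.0524, edgeR), a mitochondrial transcription factor, Polrmt (-0.20, adjusted p = 0.0546, edgeR), the mitochondrial RNA polymerase, and Ppargc1b (0.76, adjusted p = 0.0802, edgeR), a coactivator. Mitochondrial ribosomal protein genes were called lower in 43 of 76 and cytosolic ribosomal protein genes in 14 of 88, with medians of -0.28 and -0.31. Beside these counts, 6.53% of all genes tested were called lower, and 20.4% of other protein-coding genes under 1000 exon bases. An unadjusted p under 0.05, in either direction, was found for 30.0% of all genes.

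Single markers of other cells were also called in RYGB-treated vs. sham animals. Called higher were 2 of 8 pericyte markers (Notch3, 0.81 ± 0.24, adjusted p = 0.0181, edgeR, and Rgs5, 0.73 ± 0.23, adjusted p = 0.0264, edgeR), 1 of 7 choroid plexus (Kl), 1 of 6 endothelial (Cdh5) and 1 of 8 microglial markers (Cx3cr1). Among protein-coding genes outside the set, the share called higher ran from 4.09% under 1000 exon bases to 9.08% above 5000. The median summed level of pericyte markers was 267 CPM in RYGB-treated and 142 CPM in sham animals. It was 50.2 and 48.7 CPM for choroid plexus, 243 and 240 for endothelial and 327 and 348 for microglial markers. Of meningeal markers 0 of 7 were called by edgeR and 1 had an unadjusted p under 0.05, while their median was 1.34, with summed levels between 102 and 3406 CPM in RYGB-treated and between 62.4 and 1099 CPM in sham animals. Of neuronal (12), astrocyte (7), oligodendrocyte (8), ependymal (5) and pituitary (9) markers 0 were called by edgeR, with medians of -0.17, 0.24, -0.31, -0.26 and 0.96. At an unadjusted p under 0.05 stood 3 astrocyte and 2 pituitary markers and 0 of the neuronal, oligodendrocyte and ependymal ones (30.0% of all genes did). No listed marker was at 0 in all libraries, and the part of cell composition in the fall of the complex I genes was not tested.

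In BWM animals every gene pointed down from sham animals and none passed the test. None of the 38 genes was called by edgeR (0.320% of all genes) or by DESeq2 (1.08%), and 3 had an unadjusted p under 0.05 (12.3%), namely Ndufs5, Ndufb4 and Ndufs3. All 38 differences from sham animals were below 0, with a median of -0.19, a fall of 12.2%, against -0.0009 over all genes. Ndufs5 was lowest at -0.33 ± 0.17 (adjusted p = 0.405, edgeR), with 55.7, 69.0 and 129 CPM in BWM against 76.4, 115 and 137 in sham animals. These CPM were not adjusted for batch, and batch B held sham animals but no BWM animals. The ranges overlapped, and BWM replicate 2 was the highest BWM animal for 32 of the 38 genes. At the other end, Ndufa4l2 was at 4.71, 5.16 and 5.74 CPM (-0.05 ± 0.16). Without the batch term 7 genes were called lower (3.05% of all genes). Within batch A, which held all BWM animals, the median was -0.25 with 37 of 38 differences below 0. RYGB-treated animals compared directly with BWM animals had a median of -0.16 (-0.11 within batch A), with 35 of 38 differences below 0. None was called by edgeR (0.343% of all genes) or DESeq2 (0.279%), and only Ndufa1, a small subunit of the proximal membrane arm, had an unadjusted p under 0.05 (12.6% of all genes). It was at 23.2, 33.5 and 71.0 CPM in RYGB-treated and 31.7, 36.5 and 67.8 in BWM animals (-0.32 ± 0.15, adjusted p = 0.377, edgeR), and Ndufs1 was highest at 0.13 ± 0.11. Without the 3 libraries that stood apart, left out after seeing the data, BWM vs. sham had a median of -0.09 with 0 genes called by edgeR and 0 at an unadjusted p under 0.05, and RYGB vs. BWM a median of -0.34 with 0 called and 31 at an unadjusted p under 0.05 (19.4% of all genes). With 1 animal left out, the median of RYGB vs. BWM ran from -0.24 without RYGB replicate 11 to -0.03 without BWM replicate 2, and that of BWM vs. sham from -0.31 without BWM replicate 2 to -0.14 without BWM replicate 7. Both groups were set against the same sham animals, so their differences from sham are not independent.

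Lean animals also lay below sham animals for most genes, without a call. The median was -0.24 (-0.02 over all genes) and 37 of 38 differences were below 0, but 0 genes were called by edgeR (0% of all genes) or DESeq2 (0.133%), and 7 had an unadjusted p under 0.05 (12.2%). Ndufb4 was lowest, at 58.1, 71.8 and 117 CPM in lean and 75.6, 108 and 125 in sham animals (-0.40 ± 0.15, adjusted p = 0.289, edgeR), with overlapping ranges. Here too the CPM were not adjusted for batch, and every lean animal was in batch A. Ndufs1 was highest, at 122, 186.5 and 221 CPM in lean animals (0.07 ± 0.12). Lean replicate 6 was the highest lean animal for 30 genes, and 5 genes were called lower without it (2.65% of all genes). Without the batch term 8 genes were called lower (5.61% of all genes).

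In PYY3-36-treated animals nearly all genes pointed down from saline animals, most clearly from those of the same batch, and none was called. In the fit over all animals the median was -0.28, with 37 of 38 differences below 0. None was called by edgeR (0% of all genes) or DESeq2 (0.0183%), and 4 had an unadjusted p under 0.05 (7.54%), Ndufb7, Ndufa4 and Ndufa4l2 among them. Ndufb7 was at 81.1, 73.7, 85.7 and 66.5 CPM in the 4 PYY3-36-treated animals and at 74.4, 105 and 144 CPM (lowest, median, highest) in saline animals (-0.49 ± 0.21, adjusted p = 0.652, edgeR). The ranges overlapped only with saline animals of batch A, which were at 80.7, 74.4 and 98.8 CPM, and not with those of batch B, at 105, 104.5, 109.7, 117 and 144 CPM. Ndufa10l1 was at 37.5, 42.2, 39.4 and 40.0 CPM against 27.8, 36.9 and 46.9 (0.03 ± 0.14), the highest difference. Within batch B, 38 of 38 differences were below 0 with a median of -0.33, 33 had an unadjusted p under 0.05 (15.8% of all genes) and the smallest adjusted p was 0.052, for Ndufa4 (-0.52 ± 0.11, edgeR). For 26 of 38 genes the 4 PYY3-36-treated animals all lay below the 5 saline animals of batch B (3.85% of all genes did, and 6.38% did not overlap in either direction), and by the mean over the 38 genes all 4 lay below all 5.

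Liraglutide-treated animals differed little from saline animals in the median (-0.05), and 31 of 38 differences were below 0. None was called by edgeR (0% of all genes) or DESeq2 (0.0137%), and only Ndufa4l2 had an unadjusted p under 0.05 (2.08% of all genes). It was at 3.25, 3.46, 6.53, 6.53 and 3.22 CPM in the 5 liraglutide-treated animals and at 4.49, 5.52 and 6.32 CPM in saline animals (-0.39 ± 0.18, adjusted p = 1, edgeR). The liraglutide values fell on both sides of the saline range. Ndufa10l1 was at 36.8, 41.9, 44.4, 41.0 and 49.6 CPM (0.14 ± 0.13), the highest difference. The median took the other sign without the batch term, at 0.04, with the 2 groups alone, at 0.05, and with the replicate block, at 0.06, and within batch B it was -0.11. It was also above 0 without liraglutide replicate 1, without liraglutide replicate 5 (0.02) and without saline replicate 8 (0.01).

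PYY3-36 + liraglutide-treated animals had a median of -0.12 vs. saline animals, with 35 of 38 differences below 0. None was called by edgeR (0.00457% of all genes) or DESeq2 (0.0412%), and 0 had an unadjusted p under 0.05 (2.53%). Ndufb7 was lowest, at 68.9, 88.4 and 116 CPM against 74.4, 105 and 144 in saline animals (-0.24 ± 0.16, adjusted p = 1.0, edgeR). Ndufs1 was highest, at 160, 197 and 258 CPM against 149.5, 202 and 234 (0.10 ± 0.11). Both ranges overlapped with saline animals, and the medians were -0.06 within batch A and -0.09 within batch B. The 3 hormone groups share the saline animals.

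**Figure D5:**
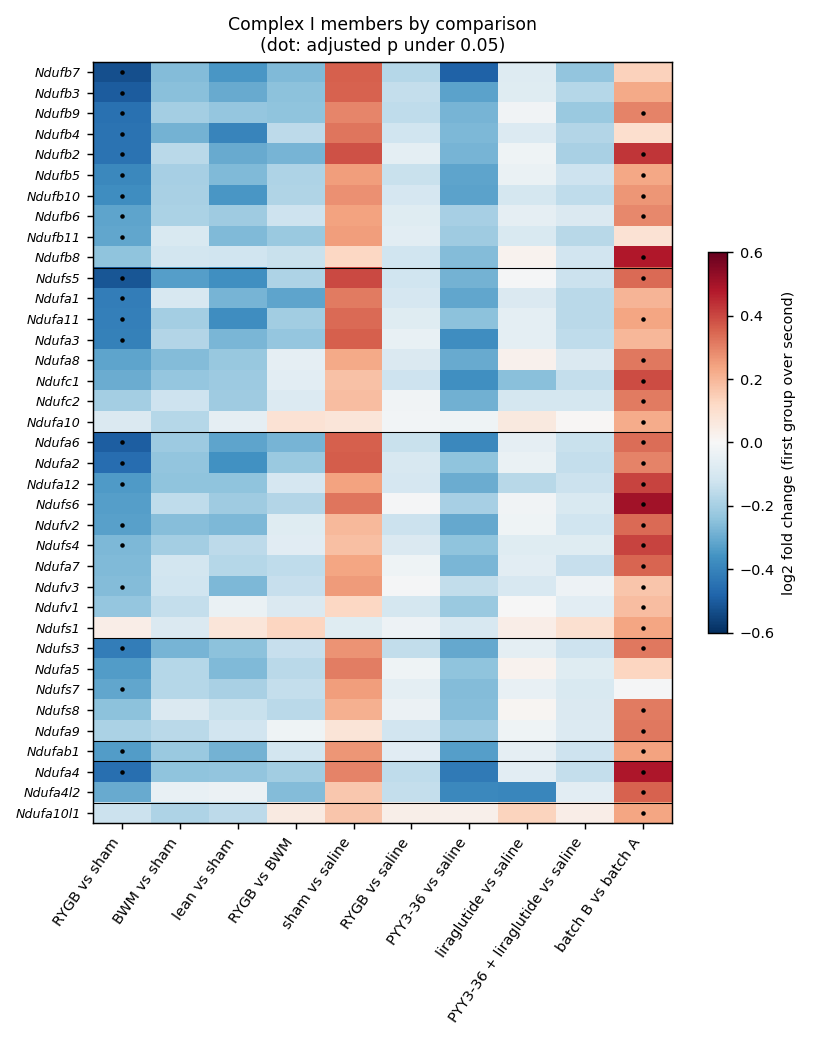
Heat map of log2 fold changes of 37 of the 38 complex I genes (rows, by module) in the comparisons between groups and between batches (columns), from edgeR with group and batch terms. A dot marks adjusted p under 0.05. RYGB, BWM and lean columns vs. sham are below 0 for nearly all genes, and the sham vs. saline column is above 0 for all genes shown but Ndufs1.

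Sham animals were above saline animals for 37 of 38 genes, with a median of 0.25, or 19.1% higher, and no gene passed the test. None was called by edgeR (0.0137% of all genes) or DESeq2 (0.128%), and 21 had an unadjusted p under 0.05 (12.9%). Ndufs5 was highest, at 76.4, 115 and 137 CPM in sham and 62.9, 90.6 and 119 in saline animals (0.40 ± 0.15, adjusted p = 0.284, edgeR), and Ndufs1 was lowest at -0.07 ± 0.11. The ranges overlapped. Within batch A the median was 0.41 (5 sham, 3 saline) and within batch B 0.14 (6 sham, 5 saline). Against saline animals, RYGB-treated animals had a median of -0.09, a fall of 6.22%, with 0 genes called by edgeR (0.00457% of all genes) and 0 at an unadjusted p under 0.05 (2.08%). Ndufb7 was lowest at -0.17 ± 0.15. These values are from the fit over all animals. Among batch B animals, 23 of 38 genes did not overlap between the 3 RYGB-treated and 5 saline animals. By the mean over the 38 genes, all 3 lay below all 5. Batch A (11 RYGB-treated, 3 saline) had overlap for all 38 genes. There, 5 of 11 RYGB means were under the saline median and 2 above every saline animal. No share of all genes is given for this overlap, so these 23 cannot be read as particular to the complex I genes. BWM animals had a median of 0.06 vs. saline animals, with 0 genes called by edgeR (0.0412%) and 0 at an unadjusted p under 0.05 (6.47%). The comparisons with saline animals and those with sham animals share their treated animals.

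Levels also differed between the batches. Between batch B and batch A, 30 of 38 genes were called higher in batch B (19.3% of all genes were), with a median of 0.29, or 22.4% higher. Ndufs6, the row of the pseudogene, differed most at 0.50, with 11, 13.2 and 15.3 CPM in sham animals of batch A and 15.6, 19.1 and 20.6 in those of batch B. Sham animals of the batches did not overlap for this row. Ndufs7 differed least (-0.005). The batches also differed in the size of library fragments as the labels give it, and period and fragment size cannot be told apart.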

How the data were processed

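From each hypothalamus the authors sequenced polyadenylated RNA with strand kept, trimmed reads with cutadapt (several versions, by the methods), mapped them to Rnor_6.0 with STAR 2.7.2b and counted them per gene with featureCounts 1.6.4. Reads with several places or overlapping genes were shared as fractions, so the deposited values are estimated counts, neither normalized nor log-transformed, and 30.3% of nonzero values were not whole (tolerance 1e-06). They were rounded here.

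Genes with enough counts (filterByExpr, minimum count 10, minimum total 15) were scaled by TMM and tested in R 4.3.3 with edgeR 4.0.16, robust quasi-likelihood, on all 65 libraries with group and batch terms. Adjusted p are Benjamini-Hochberg values over 21871 genes. Errors of log2 fold changes are SE, derived as the absolute log2 fold change over the square root of the F statistic. DESeq2 (1.42.0 here), the package of the study, and other scalings, filters and left-out animals were alternatives. DESeq2 was run with a batch term on the filtered genes, without the shrinkage of fold changes that the study applied. The study's limit on the fold change was applied here to edgeR values. Groups and batches came from the labels. Each library is 1 animal, and no duplicates were found. Same-numbered animals deviated together, with every correlation over 0.1, only in liraglutide vs. saline (5 pairs).

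The genes, lists and promoter letters were chosen with earlier results of these data known. Named in depth were the 10 genes with the smallest adjusted p in RYGB vs. sham, the extremes of each comparison, the core subunits other than 1 that is not reported here and is left out of plots by gene, Ndufab1, Ndufa4 and Ndufa4l2, and called genes of 2 further lists. On counts made from these libraries' means and spreads, the fit recovered 37.8% of genes lowered by 0.5 and 69.8% of those lowered by 1 on the log2 scale (21601 genes, RYGB vs. sham). Of genes lowered by 0.5 it recovered 30.3% in BWM vs. sham, 16.2% in PYY3-36 vs. saline and 14% in liraglutide vs. saline. In PYY3-36 + liraglutide vs. saline it recovered 36%. The lowered genes were picked at random from those tested and, unlike the complex I genes, did not vary together. Nor were they matched to the complex I genes in level, so these shares do not say how many changed complex I genes would be called. Values of a library rest on its depth. The p-values weigh a difference between groups against the spread between animals, estimated over all libraries of a fit. Promoters came from RefSeq (GRCr8) and were not lifted to Rnor_6.0. Figures and counts were made in Python 3.11.15.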

Additional observations from a re-analysis of the deposited data

Results flagged for a closer look

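Over 19 measures, 114 sets of values were tested, each 1 measure in 1 group of 4 to 10 animals. The larger RYGB-treated and sham groups were not tested. In 6 sets an animal was far from the others by Dixon's test at the 95% level, where about 1 in 20, or 5.7, would be by chance. That number takes the sets as independent, while levels of the genes varied together. PYY3-36 + liraglutide replicate 10 was the highest of its group for Ndufb4 (105.9 CPM, next 80.4), Ndufa2 (109.6 CPM, next 76.1) and Ndufb3 (112.9 CPM, next 77.8), and was the highest of that group for 33 of the 38 genes. BWM replicate 2 was the highest for Ndufb5 (187.9 CPM, next 131), lean replicate 6 the highest for Ndufa11 (142.6 CPM, next 94.1), and PYY3-36 replicate 2 the lowest for Ndufv2 (151.7 CPM, next 196).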

How the results depend on the processing

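The fall of the complex I genes in RYGB-treated vs. sham animals kept its direction in the median under every alternative run, from -0.43 without the batch term to -0.28 with library totals as the only scaling, while the count of 23 genes called lower varied. It was 11 without the low-count filter, 35 without the batch term (13.7% of all genes), 0 within batch A (1.01%) and 0 under the study's limit on the fold change (2.37%). Leaving out 1 animal at a time gave 11 to 34. Other scalings gave 16 to 23, a filter at 50 counts 24, DESeq2 24 (7.10% of all genes) and the 2 groups alone 20. Batch B alone gave 25 (5.53%) and the set without 3 libraries, chosen after seeing the data, 34 (13.3%). Without the batch term 7 genes were called lower in BWM vs. sham (3.05% of all genes) and 8 in lean vs. sham (5.61%). Leaving out 1 animal at a time gave 0 to 5 in lean vs. sham, 5 without lean replicate 6 (2.65%). Counts printed here without a share of all genes cannot be read as particular to the complex I genes. The cause of these changes was not tested.

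Differences near 0 took the other sign. Ndufs1 was at -0.022 without the batch term and at -0.14 within batch A in RYGB vs. sham. In lean vs. sham it was at -0.048 without the batch term, -0.072 with the 2 groups alone and -0.091 within batch A, and -0.0092 (without lean replicate 5) to 0.16 with 1 animal left out. In sham vs. saline it was at 0.14 within batch A. Ndufa4l2 was at 0.047 in BWM vs. sham within batch A, and Ndufa10l1 at -0.032 in PYY3-36 vs. saline within batch B.

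With the replicate number as a block, 18 genes were called in RYGB vs. sham (median -0.39) and 0 in every other comparison between groups. The share of all genes called in that fit is not given here, so these counts cannot be read as particular to the complex I genes. Of the same-numbered pairs in RYGB vs. sham, 4 of 11 correlated above 0.1. Only 5 of the 11 pairs were of the same batch, and batch was not removed. The correlations therefore cannot tell whether those animals share more than a number. Animal number and depth, with 20041010 to 36539941 counts a library, limit what falls under the threshold.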
